A study of Mus musculus with 12 samples.

Results

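The lysophospholipid receptor genes are followed here in mouse ES cells treated with siRNAs against *Kdm6a*, the X-linked gene of the H3K27 demethylase KDM6A. The list holds 10 genes, 6 receptors of lysophosphatidic acid (*Lpar1* to *Lpar6*) and 4 of sphingosine 1-phosphate (*S1pr1*, *S1pr2*, *S1pr3* and *S1pr5*), taken by gene symbol in the platform annotation. Of these, 9 had a probe set of their own, 1 each, among 19938 named genes, and all 9 reached the minimum level for testing, as did 15309 genes in all. *Lpar5* had no named probe set of its own and was not analysed here. The family was chosen by measured values, since the change of *Lpar4* in PGK12.1 was among the largest rises and differed between the lines. Changes in PGK12.1, in WD44 and between them are therefore given for the receptor genes as a description. Where genes called in these contrasts are counted over all genes, nothing is read from the receptor genes among them.

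PGK12.1 is a female line from blastocysts of a 129 female and a (129 X PGK)F1 male, and WD44 is a male line from BL6 blastocysts. Each is 1 line, so sex and strain cannot be told apart, and the study's other ES cell lines were not analysed here. Control cells received Invitrogen Stealth negative control siRNAs, and the others a pool of siRNAs against *Kdm6a*. All cells were undifferentiated, at passage 14 to 18, grown with LIF on MEF feeders and depleted of feeders on gelatin before transfection. PGK12.1 experiments 1 and 2 had double RNAi (100 pmol for 48 h, then 400 pmol for 24 h), while single RNAi (100 pmol for 48 h) was used in PGK12.1 experiments 3 and 4 and throughout WD44. Each of the 6 experiments gave 1 control and 1 *Kdm6a* RNAi array, 12 Affymetrix Mouse Gene 1.0 ST arrays in all. The study calls its array experiments independent without saying whether those of WD44 were separate cultures, so their spread may be technical.

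Lysophosphatidic acid (LPA) and sphingosine 1-phosphate (S1P) are small signalling lipids that act through G protein-coupled receptors. The S1P receptors and LPAR1, LPAR2 and LPAR3 belong to the EDG branch of this receptor superfamily, while LPAR4, LPAR5 and LPAR6 lie nearer to the purinergic P2Y receptors. Depending on the receptor, the signal runs through Gi, Gq, Gs or G12/13 proteins, and can reach the transcriptional regulators YAP and SRF.

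*Lpar4* and *Lpar6*, the P2Y-like receptors measured here, had the largest rises of the family in PGK12.1, and the 250 bases before their annotated starts are shown as the context of these genes. Both sequences are from RefSeq (GRCm38.p6), plus strand, for *Lpar4* at chrX:106920375-106920624 and for *Lpar6* at chr14:73237641-73237890, with each CG step in capitals.
Lpar4: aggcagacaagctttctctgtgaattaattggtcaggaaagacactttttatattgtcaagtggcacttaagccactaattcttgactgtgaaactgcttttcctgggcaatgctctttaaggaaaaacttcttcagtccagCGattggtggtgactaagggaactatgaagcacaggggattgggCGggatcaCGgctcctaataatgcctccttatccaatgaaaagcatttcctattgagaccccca
Lpar6: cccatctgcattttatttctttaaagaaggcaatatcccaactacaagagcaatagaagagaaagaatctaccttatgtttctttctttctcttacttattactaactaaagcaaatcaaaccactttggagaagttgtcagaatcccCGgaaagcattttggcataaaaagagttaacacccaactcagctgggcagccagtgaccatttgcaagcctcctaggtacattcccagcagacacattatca
The *Lpar4* stretch holds 3 CG steps and that of *Lpar6* holds 1. Over the whole 300-base windows, which run on past the start, *Lpar4* had 6 CG steps and a GC content of 46.7%, and *Lpar6* had 1 and 40.0%. Across 32851 such windows of 27025 genes the median was 7 CG steps, the quartiles were 3 and 20, and the median GC content was 52.7%. Fewer CG steps than in *Lpar4* were found in 43.6% of windows, and fewer than in *Lpar6* in 5.43%. Both of these genes thus had fewer CG steps than the first listed windows of *Lpar1*, *Lpar2*, *Lpar3*, *S1pr2*, *S1pr3* and *S1pr5*, which held 14 (*Lpar1*, *S1pr3*), 15 (*Lpar2*), 18 (*S1pr2*), 25 (*Lpar3*) and 27 (*S1pr5*). *Lpar1* has other windows with 37 and 3 CG steps, *Lpar5* has windows with 7 and 5, and *S1pr1* has none in the table. The letters TATAAA and CCAAT, searched on both strands, were both in the *Lpar4* window and neither was in that of *Lpar6*. They occur in 13.6% and 37.4% of all windows.

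The labels were checked first on the targeted gene. *Kdm6a* was lower after *Kdm6a* RNAi in all 6 experiments, with log2 changes, taken as the *Kdm6a* RNAi array minus the control array of its experiment, of -1.27, -1.50, -1.42 and -0.96 in PGK12.1 and of -0.94 and -0.92 in WD44. The mean was -1.29 in PGK12.1 (standard error 0.0772, adjusted p = 0.000293 from limma) and -0.93 in WD44 (adjusted p = 0.130). Array medians lay at 6.15 to 6.21 on the log2 scale in PGK12.1 experiments 1 and 2, at 6.47 and 6.48 in experiment 3, at 8.21 and 8.2 in experiment 4 and at 8.03 to 8.08 in WD44. Values were therefore compared within an experiment. As a mark of level across experiments, the linear value was also divided by the mean of its array. All 7 markers of ES cells, among them *Pou5f1* and *Nanog*, were above 0.1 of the array mean, and their summed level changed by -0.01 to 0.04 on the log2 scale in the 6 experiments. By limma, 0 of the 7 were called in either line. At an unadjusted p under 0.05 were 0 in PGK12.1 and 1 in WD44, *Zfp42*, with log2 changes of -0.28 and -0.18. Of 11 measured markers of feeder fibroblasts 9 were tested. With limma, 0 of them were called in either line, and 0 in PGK12.1 and 4 in WD44 were at an unadjusted p under 0.05, beside 22.6% and 16.1% of all genes. The sum of the markers was 1.77 to 2.82 times the array mean in PGK12.1 controls, 1.69 to 2.83 after *Kdm6a* RNAi, 2.84 to 2.93 in WD44 controls and 2.97 to 3.1 after *Kdm6a* RNAi. In bulk RNA, fewer cells of a type and less RNA per cell cannot be told apart.

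*Lpar4*, an X-linked receptor of LPA, was measured by probe set 10601412 and lies at chrX:106920625-106933899 (GRCm38.p6). The receptor gene was higher on the *Kdm6a* RNAi array of every PGK12.1 pair. Its log2 values went from 7.74 to 8.54 and from 7.71 to 8.41 in the double RNAi experiments, and from 8.74 to 9.38 and from 9.32 to 10.16 in the single RNAi experiments. In WD44 they went from 10.80 to 10.85 and from 11.15 to 10.96, so that 1 experiment was slightly higher and the other lower. The log2 changes in PGK12.1 were thus 0.80, 0.70, 0.64 and 0.84, with a mean of 0.74 ± 0.091 (SD, n = 4; standard error 0.0543 from limma), a rise by 67.6%. In WD44 the changes were 0.05 and -0.19, with a mean of -0.07 ± 0.17 (SD, n = 2; standard error 0.0767). The PGK12.1 change exceeded that of WD44 by 0.81 on the log2 scale (standard error 0.094), and no PGK12.1 experiment overlapped a WD44 experiment. Among 15309 genes, *Lpar4* ranked 3 for the rise in PGK12.1 and 3 for the difference between lines. These are the values for which the family was chosen.

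**Figure D1:**
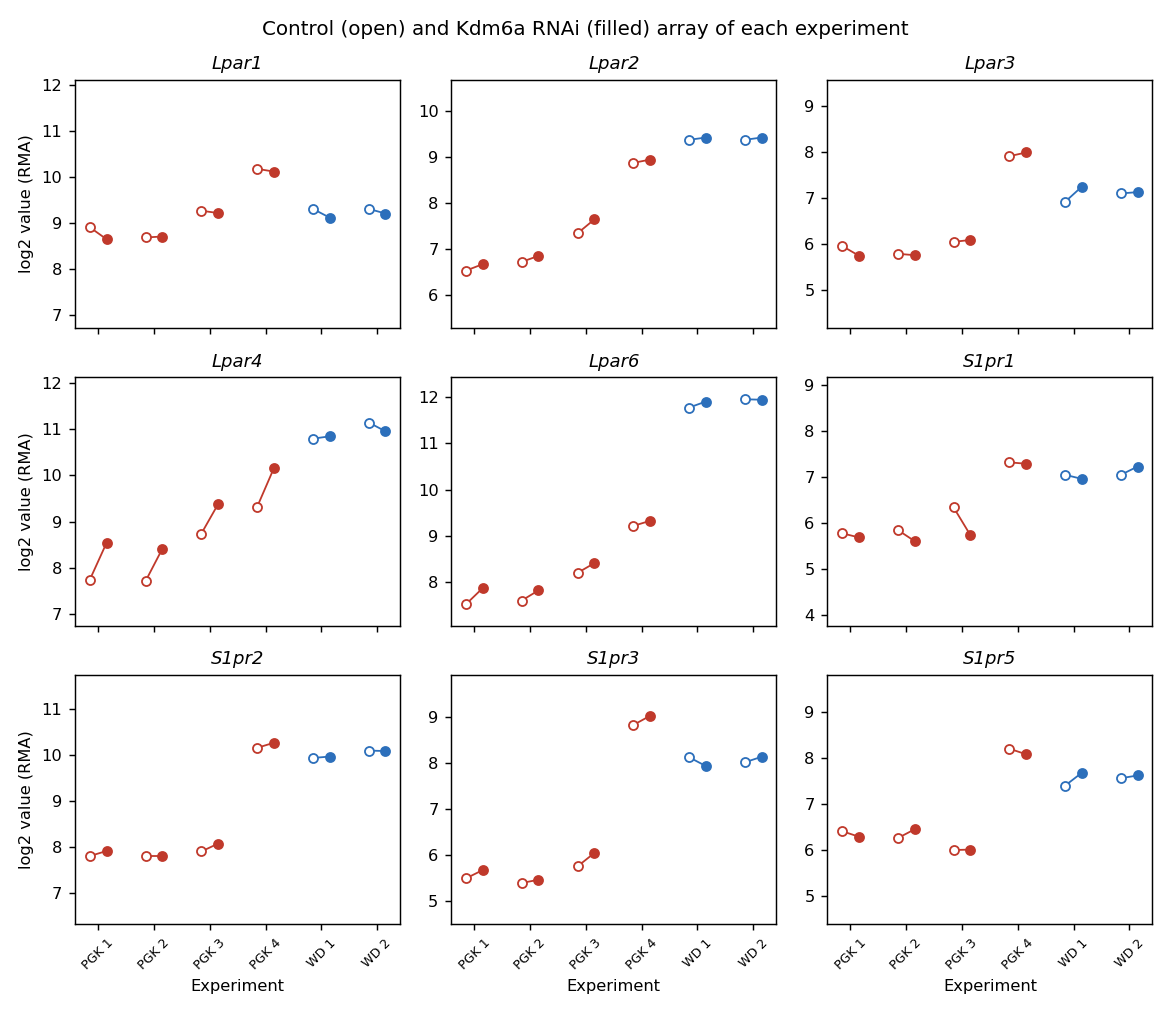
Log2 value (vertical axes, each spanning the same range) of 9 receptor genes on the control (open) and *Kdm6a* RNAi (filled) array of every experiment, in red for PGK12.1 (PGK 1 to 4) and in blue for WD44 (WD 1 and 2), with a line joining the arrays of an experiment. *Lpar4* rises in all 4 PGK12.1 experiments, by 0.64 to 0.84. In every panel experiment 4 has the highest PGK12.1 value of each treatment, as it has the highest array medians, 8.2 and 8.21 against 6.15 to 6.48. The *Lpar4* control also steps from 7.71 in experiment 2 to 8.74 in experiment 3, with 9.32 in experiment 4.

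Levels of *Lpar4* against the array mean differed between the lines before any knockdown. The controls stood at 0.606 ± 0.102 (SD, n = 4) in PGK12.1 and at 1.75 ± 0.311 (SD, n = 2) in WD44, and after *Kdm6a* RNAi the levels were 1.01 ± 0.117 and 1.67 ± 0.0967. In rising order the groups were PGK12.1 control, PGK12.1 *Kdm6a* RNAi, WD44 *Kdm6a* RNAi and WD44 control. The lowest array after *Kdm6a* RNAi in PGK12.1, 0.921, lay above the highest control, 0.754, whereas the WD44 groups overlapped, with 1.52 and 1.97 in the controls and 1.60 and 1.74 after *Kdm6a* RNAi. All PGK12.1 arrays after *Kdm6a* RNAi, up to 1.18, remained below all WD44 arrays. Within the arrays, *Lpar4* was brighter on average than 68.3% of genes in PGK12.1 controls and 78.0% after *Kdm6a* RNAi, against 84.9% and 84.6% in WD44. The difference in level between lines was not tested, since array medians differed between experiments and the arrays may not share 1 scale.

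Double and single RNAi are a comparison that the choice of genes did not use. *Lpar4* rose by 0.80 and 0.70 on the log2 scale after double and by 0.64 and 0.84 after single RNAi, and the difference, double minus single, was 0.01 (95% confidence interval -0.25 to 0.27, adjusted p = 0.982 from limma). The sign of so small a value turned in some settings, to -0.09 without experiment 3 and to -0.03 after quantile normalization. For the other 8 receptor genes the differences ran from -0.18 (*Lpar3*, 95% confidence interval -0.45 to 0.09, adjusted p = 0.697) to 0.15 (*S1pr1*, -0.25 to 0.55, adjusted p = 0.851). None of the 9 passed in limma and 0 were at an unadjusted p under 0.05, beside 0% of all 15309 genes called and 8.88% at an unadjusted p under 0.05. Without experiment 4, 1 of the 9 was at an unadjusted p under 0.05, and 0 were called in all settings tried. Dose, time and array set go together here and cannot be told apart.

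**Figure D2:**
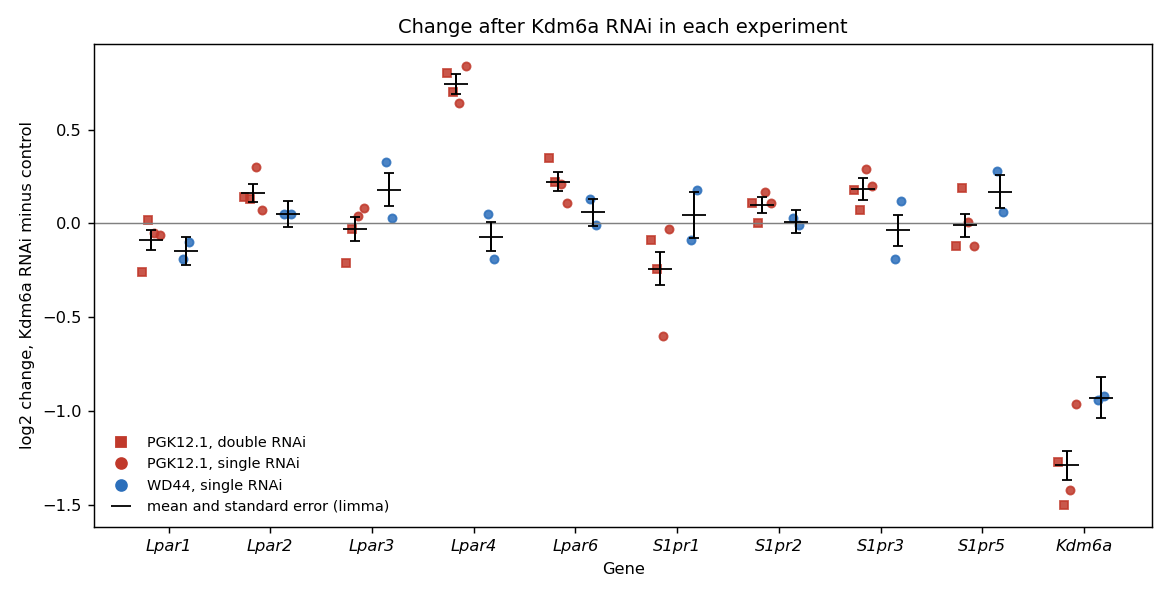
Log2 change (vertical axis, *Kdm6a* RNAi minus control) of 9 receptor genes and of *Kdm6a* (horizontal axis) in each experiment. PGK12.1 is drawn in red and WD44 in blue, double RNAi as squares and single RNAi as circles, with the mean and standard error from limma in black. *Lpar4* lies between 0.64 and 0.84 in PGK12.1 while its WD44 points are 0.05 and -0.19, and the other receptor genes lie between -0.60 and 0.35.

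*Lpar6*, the other P2Y-like LPA receptor measured (probe set 10416371, gene at chr14:73237891-73240358), was slightly higher after *Kdm6a* RNAi in every PGK12.1 experiment. Its log2 values went from 7.51 to 7.86, 7.59 to 7.81, 8.19 to 8.40 and 9.21 to 9.32 in PGK12.1, and from 11.78 to 11.91 and 11.96 to 11.95 in WD44. The mean change was 0.22 ± 0.098 (SD, n = 4; standard error 0.0506) in PGK12.1, a rise by 16.7%, and 0.06 ± 0.099 (SD, n = 2; standard error 0.0715) in WD44. The lines stood far apart in level. *Lpar6* was at 0.504 ± 0.015 times the array mean in PGK12.1 controls and 0.589 ± 0.0446 after *Kdm6a* RNAi (SD, n = 4), against 3.23 ± 0.309 and 3.39 ± 0.0802 in WD44 (SD, n = 2). PGK12.1 experiment 4, whose array medians are closest to those of WD44, had 0.486 in its control and 0.525 after *Kdm6a* RNAi, while the lowest WD44 array had 3.01. *Lpar6* was brighter than 64.8% of genes on average in PGK12.1 controls and 93.5% in WD44 controls. This difference between lines was not tested either.

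*Lpar6* lies on chromosome 14 within *Rb1*, the gene of the retinoblastoma protein. *Rb1* had log2 changes of 0.18, 0.15, 0.42 and 0.38 in PGK12.1 and of -0.19 and -0.12 in WD44. Averaged over experiments this was 0.28 (limma standard error 0.0554, adjusted p = 0.0190) in PGK12.1 and -0.16 (adjusted p = 0.364) in WD44. *Rb1* was thus higher in all 4 PGK12.1 experiments, as *Lpar6* was. The rises of *Lpar6* were 0.35, 0.22, 0.21 and 0.11 in experiments 1 to 4. The call for *Rb1* was lost without PGK12.1 experiment 3 (adjusted p = 0.0655 from limma) or 4 (0.0724). It was also lost with double RNAi only (0.17), without the block and with the methods' paired t-test (0.27). With single RNAi only it held (0.0459 from limma). Whether the probe sets share signal was not tested.

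**Figure D3:**
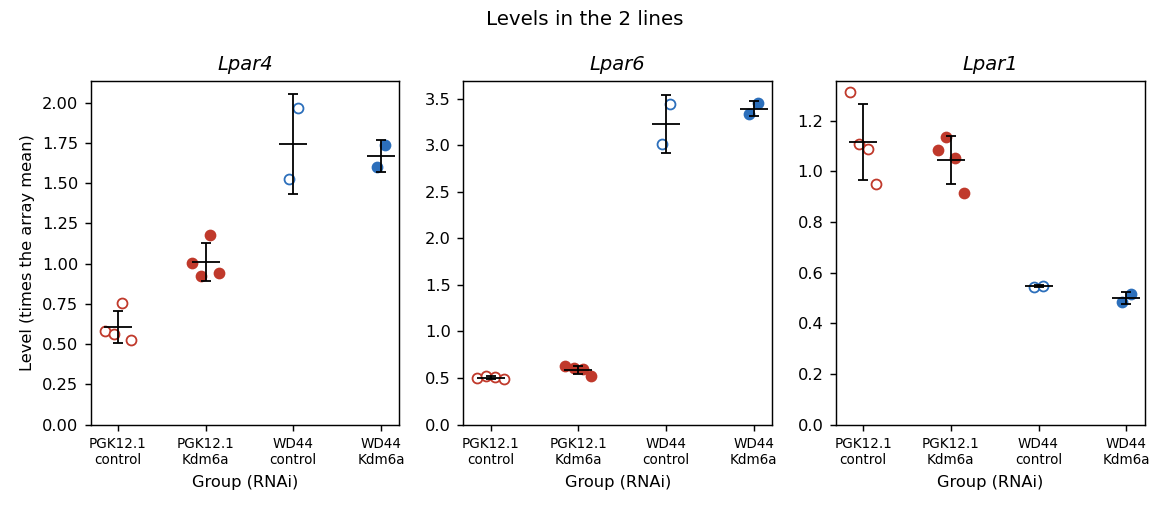
Level (vertical axes, linear value over the mean of its array, from 0) of *Lpar4*, *Lpar6* and *Lpar1* in the 4 groups, with 1 point per array, open for control and filled for *Kdm6a* RNAi, and the mean ± SD in black (n = 4 in PGK12.1, n = 2 in WD44). *Lpar4* moves from 0.606 to 1.01 in PGK12.1 and stays below the WD44 arrays, *Lpar6* is at 0.589 or less on average in PGK12.1 and at 3.23 or more in WD44, and *Lpar1* is higher in PGK12.1.

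Of the EDG-type LPA receptors, *Lpar1*, the most widely expressed of them in the body, had the reverse order of levels. Its level was 1.12 ± 0.150 times the array mean in PGK12.1 controls (SD, n = 4) and 0.546 ± 0.00420 in WD44 controls (SD, n = 2). The lowest PGK12.1 array of either treatment, 0.914, was above the highest WD44 array, 0.549. After *Kdm6a* RNAi, *Lpar1* changed by -0.26, 0.02, -0.05 and -0.06 on the log2 scale in PGK12.1 and by -0.19 and -0.10 in WD44. Its means were -0.09 ± 0.120 (SD, n = 4) and -0.14 ± 0.0640 (SD, n = 2), so that 5 of 6 experiments were lower by small amounts. The largest of these falls, in PGK12.1 experiment 1, came with the largest fall of the summed feeder markers, -0.18 on the log2 scale against -0.07 to 0.00 in the other PGK12.1 experiments and 0.06 and 0.08 in WD44, and their part in it was not tested.

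*Lpar2*, an EDG-type receptor often raised in tumours, had log2 changes of 0.14, 0.13, 0.30 and 0.07 in PGK12.1 and of 0.05 in both WD44 experiments. The means were 0.16 ± 0.098 (SD, n = 4; standard error 0.0480) and 0.05 (standard error 0.0678), and both lines moved the same way. Its level was 0.303 ± 0.0574 times the array mean in PGK12.1 controls and 0.573 ± 0.00450 in WD44 controls. *Lpar3*, known for its part in embryo implantation in the uterus, was dim, at 0.157 ± 0.0338 and 0.110 ± 0.0105 times the array mean in the controls. It changed by -0.21, -0.03, 0.04 and 0.08 in PGK12.1 and by 0.33 and 0.03 in WD44, and these ranges overlap.

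Among the S1P receptors, *S1pr2*, which couples strongly to G12/13, was brighter than 69.3% of genes on average in PGK12.1 controls and 72.0% in WD44 controls. Its log2 values were 7.81, 7.82, 7.91 and 10.16 in the PGK12.1 controls, 7.92, 7.82, 8.08 and 10.27 after *Kdm6a* RNAi, 9.94 and 10.10 in the WD44 controls and 9.97 and 10.09 after *Kdm6a* RNAi. The changes were thus 0.11, 0.00, 0.17 and 0.11 in PGK12.1, with a mean of 0.10 ± 0.0710 (SD, n = 4), and 0.03 and -0.01 in WD44.

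*S1pr1*, the receptor that guides lymphocyte exit and vessel maturation, was dim and lower in each PGK12.1 experiment, by -0.09, -0.24, -0.60 and -0.03 on the log2 scale. Its mean of -0.24 ± 0.256 (SD, n = 4; standard error 0.0870) was -0.12 without experiment 3, where the log2 value went from 6.34 to 5.74 and the level, 0.0945 times the array mean, was the lowest of *S1pr1* on any array. In WD44 the changes were -0.09 and 0.18. *S1pr1* stood at 0.145 ± 0.0104 times the array mean in PGK12.1 controls and 0.114 ± 0.000900 in WD44 controls. *S1pr3*, which couples to Gi, Gq and G12/13, was higher in each PGK12.1 experiment, by 0.18, 0.07, 0.29 and 0.20, with a mean of 0.18 ± 0.0900 (SD, n = 4; standard error 0.0585). In WD44 it changed by -0.19 and 0.12. Its controls were at 0.0949 to 0.123 times the array mean in PGK12.1 experiments 1 to 3, at 0.371 in experiment 4 and at 0.223 and 0.238 in WD44. *S1pr5*, a receptor of natural killer cells and oligodendrocytes, changed by -0.12, 0.19, 0.01 and -0.12 in PGK12.1 and by 0.28 and 0.06 in WD44, with no common direction in PGK12.1. Its level was 0.113 to 0.241 times the array mean in PGK12.1 controls and 0.144 and 0.163 in WD44 controls.

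Over the family, 4 of 9 genes were higher in all 4 PGK12.1 experiments (*Lpar2*, *Lpar4*, *Lpar6* and *S1pr3*) and 1 was lower in all 4 (*S1pr1*). Over all 15309 genes the shares were 16.3% and 10.6%. In WD44, 3 of 9 were higher in both experiments (*Lpar2*, *Lpar3* and *S1pr5*) and 1 was lower in both (*Lpar1*), beside 31.3% and 33.1% of all genes. At an adjusted p under 0.05 from limma over all genes, 2 of 9 were called higher in PGK12.1 (*Lpar4* and *Lpar6*), beside 3.71% of all genes, and 0 were called lower, beside 2.1%. In that comparison 5 of 9 were at an unadjusted p under 0.05, and 22.6% of all genes were. This contrast chose the family, and nothing is read from these counts. The call for *Lpar6* held neither without WD44 experiment 1 or 2 nor without PGK12.1 experiment 1, 2 or 3. In WD44, 0 of 9 and 0% of all genes were called, and 0 of 9 and 16.1% of all genes were at an unadjusted p under 0.05. For the difference between lines, 0 of 9 and 0% of all genes were called, while 1 of 9 (*Lpar4*) and 21.0% of all genes were at an unadjusted p under 0.05. With the methods' paired t-test, 0 receptor genes were called in either line, and 4 in PGK12.1 and 0 in WD44 had an unadjusted p under 0.05. The median log2 change of the 9 genes was 0.10 in PGK12.1 and 0.04 in WD44, and that of all genes was 0.01 and -0.01.

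The genes that make, remove or relay LPA and S1P were followed as a list of 63, of which 60 were measured and 54 tested. With limma, 2 of 54 passed as lower and 0 as higher in PGK12.1, beside 2.1% and 3.71% of all genes, and 11 were at an unadjusted p under 0.05, as were 22.6% of all genes. In WD44, 0 were called and 6 were at an unadjusted p under 0.05, beside 0% and 16.1% of all genes. The median log2 change of the list was 0.00 in PGK12.1, and the values ran from -0.34 to 0.18. *Lpar4* had 0.74, but it was chosen for its large rise, so nothing is read from this distance.

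The genes of the list called lower were *Liph*, listed under the making of LPA, and *Agpat2*, listed under its removal. *Liph*, which encodes a phospholipase that releases LPA from phosphatidic acid, had log2 changes of -0.29, -0.44, -0.09 and -0.39 in PGK12.1 and of -0.20 and -0.12 in WD44. Its PGK12.1 mean of -0.30 (standard error 0.0591) passed with an adjusted p of 0.0186 from limma, but not without experiment 1 (0.0516), 2 (0.0845) or 4 (0.0723). *Agpat2*, whose acyltransferase turns LPA into phosphatidic acid within the cell, changed by -0.40, -0.34, -0.38 and -0.25 in PGK12.1 and by 0.07 and -0.04 in WD44. Its mean was -0.34 (adjusted p = 0.00404 from limma, standard error 0.0453), and the call held without any single experiment, with adjusted p-values up to 0.0211. It was lost with single RNAi only (0.0937), with double RNAi only (0.0512), without the block and with the methods' paired t-test (0.155), and in these settings *Liph* was not called either. Among the remaining genes listed under these 2 roles, *Pla1a* had a PGK12.1 mean of -0.25 (adjusted p = 0.0969 from limma). It was listed under the making of LPA, though its phospholipase acts on phosphatidylserine. *Acp6*, the gene of an LPA phosphatase, had a PGK12.1 mean of 0.17 (adjusted p = 0.109 from limma). *Enpp2*, the gene of autotaxin, had no named probe set of its own and was not analysed here.

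In the other roles described here no gene was called in either line by limma. The largest PGK12.1 value among 10 genes for making, exporting and carrying S1P was that of the ceramidase gene *Acer3*, 0.18 (standard error 0.0545, adjusted p = 0.0913). Among 3 genes for S1P removal it was that of the phosphatase gene *Sgpp2*, -0.18 (adjusted p = 0.150). Of 7 G protein alpha subunits *Gnai1*, which couples to inhibition of adenylyl cyclase, had 0.16 (adjusted p = 0.101). In the YAP and SRF arm, with 14 genes tested, values ran from -0.12 (*Amotl2*, a YAP-binding protein and target, adjusted p = 0.218) to 0.11 in PGK12.1 and from -0.12 to 0.25 in WD44. The YAP target genes *Ccn1* and *Ccn2* had 0.04 and -0.06 in PGK12.1. Of 12 related receptors 6 reached the minimum level, and among them *Gpr132* had -0.11 (adjusted p = 0.339), *Cysltr1* -0.11 (adjusted p = 0.392) and *S1pr4*, the remaining S1P receptor, -0.01 (adjusted p = 0.966).

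**Figure D4:**
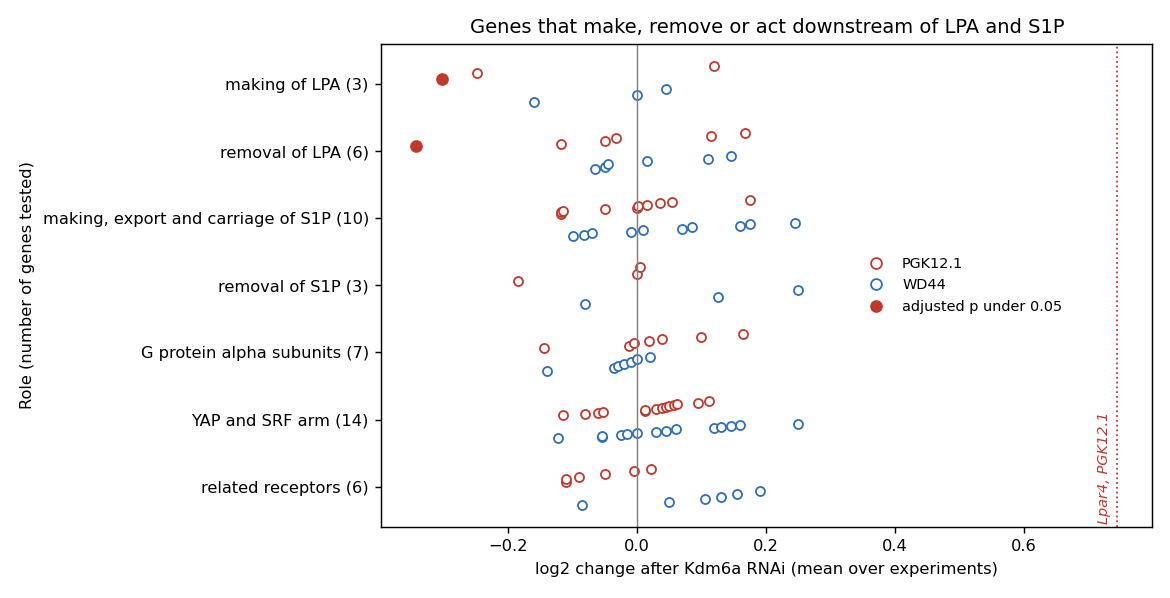
Mean log2 change after *Kdm6a* RNAi (horizontal axis) of 49 of the 54 tested genes around LPA and S1P, grouped by role (vertical axis, with the number of genes tested), red for PGK12.1 (n = 4) and blue for WD44 (n = 2), with filled symbols for an adjusted p under 0.05 from limma. *Liph* and *Agpat2* lie lowest, at -0.30 and -0.34, and all others lie between -0.25 and 0.25. The dotted line marks *Lpar4* in PGK12.1 at 0.74, a gene chosen for its large rise.

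The measured neighbours of *Lpar4* on the X chromosome are given as a description, since *Lpar4* was chosen for its large rise. Before it in coordinate order, *Cysltr1* and *Gm5127* had PGK12.1 means of -0.11 (adjusted p = 0.392 from limma) and -0.07 (adjusted p = 0.491), and *Rtl3*, below the minimum level, had a mean of 0.04. After it, the related receptor genes *P2ry10*, *P2ry10b* and *Gpr174* were at 0.018, 0.021 and 0.023 times the array mean, below the minimum level, with mean log2 changes of -0.01, -0.01 and -0.12. Of 490 X-linked genes tested apart from *Kdm6a*, 36 passed as higher and 18 as lower in PGK12.1, beside 3.71% and 2.1% of all genes, and the rise of *Lpar4* ranked 1.

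Over the 6 experiments, the 5 genes whose log2 changes lay nearest to those of *Lpar4*, by root mean square difference, were *Gm7982* (0.108), *Dglucy* (0.150), *Fgf15* (0.158), *Arg2* (0.167) and *Raet1d* (0.172). They lie on chromosomes 5, 12, 7, 12 and 10. *Fgf15*, a secreted growth factor, had changes of 0.62, 0.62, 0.67 and 0.52 in PGK12.1 and of 0.11 and -0.13 in WD44. *Arg2*, the mitochondrial arginase, had 0.60, 0.63, 0.65 and 0.50 in PGK12.1 and 0.04 and -0.27 in WD44. In all 5, the smallest PGK12.1 change, 0.45 or more, exceeded the largest WD44 change, 0.13. They were picked for this likeness, so their values are a description.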

How the data were processed

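RNA of 4 PGK12.1 and 2 WD44 experiments was measured on 12 Affymetrix arrays. The authors deposited log2 values of 35556 probe sets, for which the methods name Affymetrix Expression Console for the raw files and, for normalization, RMA (background correction, alignment of array distributions, probe summary) from Bioconductor. The sources used here give no versions and do not say which arrays were normalized as 1 set. The number of arrays limits the precision.

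Probe sets were named through the platform annotation where it gave 1 symbol (21789). Those with several symbols (1621) or none (12146) entered no gene value. Probe sets of a gene were averaged (999 genes), and 19919 of 19938 symbols matched the RefSeq table of GRCm38.p6. Genes with a mean linear value of at least 0.1 of the array mean were tested (15309). limma 3.58.1 in R 4.3.3 was fitted to all 12 arrays, with the experiment as a block and 1 effect of *Kdm6a* RNAi per line. This fit had 4 residual and 5.66 prior degrees of freedom. Most of the spread used for WD44 thus comes from PGK12.1. For double minus single RNAi, a further fit had 1 effect per protocol in PGK12.1. Benjamini-Hochberg adjustment was made over all genes tested, with a threshold of 0.05. The labels number the control and *Kdm6a* RNAi arrays of an experiment alike, and the methods name paired tests. Deviations from group means correlated at 0.828 to 0.972 within PGK12.1 experiments, which the array scales raise, and at 0.265 in WD44.

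The receptor genes and all lists were chosen with earlier results of these data known. A role of the pathway list is counted in its totals but not reported here. Named genes are all receptor genes, *Kdm6a*, the called genes of each list role or else its largest PGK12.1 change, the 5 genes most like *Lpar4*, and the neighbours of *Lpar4* and the gene around *Lpar6*. *Pla1a*, *Acp6*, *Ccn1*, *Ccn2* and *S1pr4* were added after their values were seen. Alternatives were no block, other minimum levels, single probe sets, quantile normalization, trend and robust options, 1 line or 1 protocol only, the methods' paired t-test and leaving out each experiment. Python 3.11.15 with matplotlib 3.10.9 drew the figures.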

Additional observations from a re-analysis of the deposited data

How the results depend on the processing

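Over all alternatives run, the log2 change of *Lpar4* was 0.71 to 0.78 in PGK12.1. The difference between lines was 0.69 to 0.94 when experiments were left out, and in WD44 the change was -0.19 and 0.05 without experiment 1 or 2. Every PGK12.1 change was positive and the gene was chosen for them, so its direction there could not turn when experiments were left out. Without the replicate block (unpaired), and with the methods' paired t-test, 0 receptor genes and 0 pathway genes were called in PGK12.1 against 2 and 2. Without the block, the array medians of PGK12.1, from 6.15 to 8.21, enter the spread, so nothing is read from that fit. Receptor calls were 1 (*Lpar4*) with no minimum level, with 1 line only and with single or double RNAi only, 3 with a minimum level of 0.25, and 1 to 2 when experiments were left out. For the difference between lines, 1 (*Lpar4*) was called with a minimum level of 0.25 and with the trend and robust options, against 0. Pathway calls were 0 with single or double RNAi only, 4 with a minimum level of 0.25, 6 with the trend and robust options and 1 to 2 when experiments were left out. The causes were not tested, except that fewer arrays, other numbers of genes or the differences between array scales enter some fits. Over all genes, 890 were called in PGK12.1, 1365 with a minimum level of 0.25, 452 with none, 1647 with the trend and robust options, 537 with 1 line only, 101 and 182 with single or double RNAi only, 350 to 607 when experiments were left out, and 0 without the block or with the paired t-test. The difference between lines had 0 calls, 267 with a minimum level of 0.25 and 554 with the trend and robust options. With quantile normalization, 1 gene was called for it. WD44 had 0 calls, and 12 with the trend and robust options. It had 1 each with a minimum level of 0.25, with quantile normalization and without PGK12.1 experiment 4. The remaining 33 receptor gene values gave 469 recomputed values. Of these, 453 moved by no more than the spread between experiments, many of them not at all, and 16 by more. In this paired design a mean change cannot move without the block, with other minimum levels, single probe sets (1 per receptor gene) or the trend and robust options. For changes within a line, the same holds for 1 line only, the paired t-test or an experiment left out of the other line. The count is thus no measure of stability. Wherever 1 receptor gene was called in PGK12.1, the call of *Lpar6* was lost, and the gene gained with a minimum level of 0.25 was *Lpar2*. Probe set values near the array background have the least precision, as for *Lpar3*, *S1pr1*, *S1pr3* and *S1pr5*.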
